A study of Homo sapiens with 16 samples.

Results

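The matrix metalloproteinases and their tissue inhibitors followed here were 10 genes taken by name from the 57773 genes of the deposited tables: MMP1, MMP2, MMP9, MMP10, MMP14, MMP15, MMP24, TIMP1, TIMP2 and TIMP3. All 10 were found in both tables, and all 10 passed a filter of at least 1 TPM in at least 2 libraries. They were measured by RNA sequencing in A549, an established human lung adenocarcinoma line, during an epithelial to mesenchymal transition (EMT) induced with TGF-beta. The 8 groups were cells at 0, 6, 12, 24, 36, 48, 72 and 96 h of TGF-beta, each with 2 libraries (replicates 1 and 2), 16 in all. MMP1, MMP9, MMP10, MMP14 and TIMP3 were below 1 TPM in both 0 h libraries, so they passed the filter through later libraries only. The 0 h libraries were the only cells before TGF-beta, so time in culture and exposure to TGF-beta cannot be told apart, and all comparisons with 0 h share the same pair of libraries. The labels give no dose.

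Matrix metalloproteinases are zinc-dependent proteases that cleave collagens, basement membrane and other proteins outside the cell. Most are made as inactive precursors whose propeptide must be removed, and TIMP proteins block the active enzymes by binding their catalytic site. TIMP2 has a further role: together with the membrane-anchored MMP14 it docks the MMP2 precursor at the cell surface for activation. RNA levels do not report secretion, activation or activity of these proteins.

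Values are TPM, transcript shares scaled to one total and corrected for gene length, so levels of different genes can be set side by side. The number of reads behind a value is unknown. Differences were tested on log2(TPM + 1) with limma over all 16967 genes that passed the filter. Genes whose p, adjusted over these genes by the Benjamini-Hochberg method, was below 0.05 are termed called. Fold changes on this scale understate the change of genes near 1 TPM. The median log2 fold change of all tested genes against 0 h was itself -0.37 at 6 h and -0.46 at 48 h, and between -0.20 and 0.03 at the other times. Scaling by the trimmed mean of log ratios (TMM) brought these medians to between -0.04 and 0.02. A set of 6 abundant small RNAs took 42.5% to 64.1% of the TPM of a library, and 2 libraries, replicate 2 at 36 h and at 48 h, listed more genes at 0 than the rest (up to 36294, against 29278 to 31187). Epithelial identity was followed with 7 epithelial genes, all of which passed the filter; they do not identify the line. Their summed level began at 3797 and 4946 TPM before TGF-beta, stood at 1220 and 1834 by 48 h, and was 1706 and 1828 in the 96 h pair. For 24 to 96 h against 0 h, 7.12% of all genes were called. Of the 7 epithelial genes, 5 were called lower (AGR2, CDH1, KRT8, KRT18 and KRT19) and 1 higher (CLDN4). KRT8 and KRT18, the keratins of simple epithelia, made up most of the sum. Of 8 fibroblast markers 3 passed the filter (LUM, COL3A1 and MFAP4), and none of the 3 was called for 24 to 96 h against 0 h. All 8 together summed to 1.33 to 2.72 TPM at 0 h and 3.42 to 8.05 TPM at 96 h. DCN did not exceed 0.8 TPM and COL1A2 did not exceed 0.09 TPM in any library. The highest single values were 2.29 TPM for COL3A1 and 2.25 TPM for PDGFRB. Each of the 8 had a higher mean at 96 h than at 0 h (LUM 0.41 and 1.455 TPM, COL3A1 0.515 and 1.9 TPM). Of 4 endothelial markers found, CDH5, VWF and KDR stayed at or below 0.18 TPM. ESAM, the 1 that passed, had a mean of 0.46 TPM at 0 h, 6.77 TPM at 36 h and 1.02 TPM at 96 h and was called higher at 12, 24 and 36 h (log2 fold change at 36 h 2.41, SE 0.37, limma adjusted p = 0.00707). Of 5 leukocyte markers 4 passed. All 5 together summed to 5.0 to 14.23 TPM, and PTPRC did not exceed 0.31 TPM. CD14 did not exceed 1.82 TPM and was called lower for 24 to 96 h against 0 h. The part of these marker levels in the results was not tested. In bulk RNA, fewer cells of a type and less RNA per cell cannot be told apart.

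A set of 4 members moved past the test at single times against 0 h. MMP10, MMP1 and MMP2 rose and MMP24 fell. Without the replicate block the earliest call was that of MMP10 at 24 h, and with it MMP2, MMP10, TIMP2 and TIMP3 were called at 12 h. No member was called at 6 h, when 0.0177% of all genes were called, or at 12 h, when 0.383% were; unadjusted limma p-values were below 0.05 for 2 and 4 members at these times. At 24 h 1 of 10 members was called (1.21% of all genes), 2 were called at 36 h (2.3%) and 3 at 48 h (7.6%). The count was 4 at 72 h (2.58% of all genes) and 3 at 96 h (1.79%). Both libraries were above both 0 h libraries for 3, 5, 7, 7, 5, 6 and 4 members at the 7 later times in order, where 5.66%, 15.2%, 15.2%, 15.3%, 6.61%, 13.8% and 7.6% of all genes were. Both were below both 0 h libraries for 3, 1, 2, 2, 2, 2 and 2 members, where 61.8%, 16.1%, 37.1%, 33.2%, 62.3%, 41.5% and 31% of all genes were. The median log2 fold change of the 10 members was 0.11, 0.62, 0.65, 1.16, 0.55, 0.80 and 0.43 at the 7 later times in order. For the mean of 24 to 96 h against 0 h, 5 members were called, 4 higher (MMP1, MMP2, MMP10 and TIMP2) and 1 lower (MMP24), where 7.12% of all genes were called. Of these, MMP1 and MMP10 passed the filter only through libraries after 0 h, so their calls are not independent of the filter. The moderated F test over the whole course called 3 members (MMP1, MMP10 and MMP24) beside 1.72% of all genes. Between later times, no member was called for 24 and 36 h against 6 and 12 h (0.177% of all genes; 6 members at an unadjusted limma p below 0.05) or for 72 and 96 h against 24 and 36 h (0.1%; 2 members). The 0 h libraries weigh on all of these comparisons: without 0 h replicate 2 each of the 5 calls for 24 to 96 h was lost, with adjusted p = 0.185 (MMP1), 0.364 (MMP2), 0.0513 (MMP10), 0.0683 (MMP24) and 0.473 (TIMP2).

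The replicate number was also fitted as a block, because libraries with the same number deviated together. With the replicate block the members called were 0, 4, 5, 6, 6, 5 and 4 at 6, 12, 24, 36, 48, 72 and 96 h, where 0.0707%, 2.61%, 3.79%, 5.63%, 16.6%, 6.3% and 4.82% of all genes were called. The blocked F test called 6 members, adding MMP2, TIMP2 and TIMP3, beside 6.13% of all genes. For 24 to 96 h it called 6 members (12.5% of all genes), adding TIMP3, for 24 and 36 h against 6 and 12 h it called 3, MMP2, MMP10 and TIMP2 (1.21%), and for 72 and 96 h against 24 and 36 h none (0.477%). The blocked fit leaves the fold changes as they are and changes their error, and its calls are given below beside each gene they alter.

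**Figure D1:**
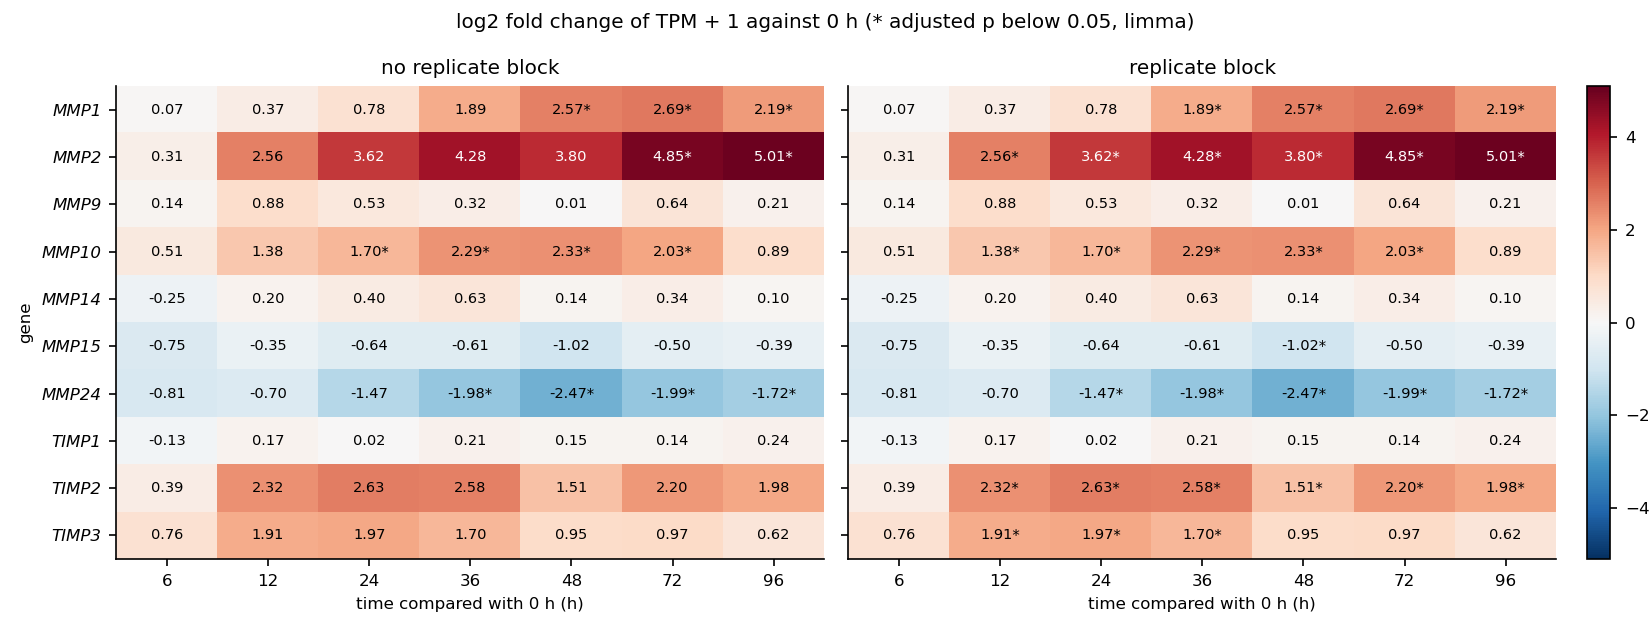
Colour and printed number give the log2 fold change of TPM + 1 against 0 h for each of the 10 genes (vertical) at each later time in h (horizontal), without a replicate block on the left and with it on the right. An asterisk marks an adjusted limma p below 0.05: MMP10 is marked from 24 to 72 h and MMP24 from 36 to 96 h on the left, and MMP2 and TIMP2 are marked from 12 to 96 h on the right.

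MMP2, gelatinase A, which degrades type IV collagen of basement membranes and denatured collagens, became the most abundant of the 7 MMP RNAs. In replicate 1 MMP2 measured 4.25, 5.03, 48.73, 58.71, 92.97, 49.65, 157.29 and 179.32 TPM at 0, 6, 12, 24, 36, 48, 72 and 96 h. In replicate 2 it measured 0.42, 0.91, 4.24, 17.88, 28.81, 27.49, 38.12 and 41.91 TPM at the same times. Both series were lowest at 0 h and highest at 96 h, and replicate 1 was the higher in 8 of 8 times. From 24 h on, both libraries of each time lay above both 0 h libraries, as did 6.61% to 15.3% of all genes at single times. Relative to its own 0 h library, replicate 1 stood at 11.5-fold and replicate 2 at 10.1-fold at 12 h, at 13.8-fold and 42.6-fold at 24 h, and at 42.2-fold and 99.8-fold at 96 h. The log2 fold change was 4.85 (SE 1.13, adjusted p = 0.0416) at 72 h and 5.01 (SE 1.13, adjusted p = 0.0454) at 96 h. At 24, 36 and 48 h it was 3.62, 4.28 and 3.80, with limma adjusted p = 0.181, 0.0735 and 0.0581. With the replicate block MMP2 was called from 12 h (2.56 on the log2 scale, SE 0.39, limma adjusted p = 0.00519) to 96 h (SE 0.39, adjusted p = 2.49e-05). Without the block both late calls were weak: leaving out 1 library at a time kept the 72 h call in 6 of 16 fits and the 96 h call in 5 of 16. Those lost at 72 h were the fits without either library of 0, 6, 24, 48 or 72 h, and at 96 h those without either library of 0, 6, 24, 36 or 48 h or replicate 1 of 96 h. The highest adjusted p was 0.443 at 72 h and 0.505 at 96 h, both without 0 h replicate 2. Leaving out both libraries with the most zeros gave 0.0667 and 0.0736. TMM scaling added calls at 36 h (adjusted p = 0.0364), at 48 h (adjusted p = 0.0351) and in the F test (adjusted p = 0.0468, against 0.0991 as deposited and 4.24e-05 with the block).

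MMP9, gelatinase B, which cleaves similar substrates and is otherwise abundant in neutrophils and macrophages, stayed low. Replicate 1 measured 0.18, 0.33, 2.22, 0.72, 0.73, 0.22, 1.53 and 0.51 TPM over the 8 times. Replicate 2 measured 0.02, 0.10, 0.26, 0.45, 0.09, 0, 0.16 and 0.06 TPM. Only 2 of 16 libraries, replicate 1 at 12 and at 72 h, reached 1 TPM, so MMP9 passed the filter through them alone. No comparison with 0 h called MMP9, with or without the block; the 12 h log2 fold change was 0.88 (95% interval -0.10 to 1.85, adjusted p = 0.691). Replicate 1 was again the higher at 8 of 8 times.

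MMP10, stromelysin 2, a secreted protease of proteoglycans, laminin and fibronectin that can activate other MMP precursors, had the earliest call without the block. Replicate 1 measured 0.11, 0.52, 2.47, 2.14, 3.09, 4.35, 3.47 and 1.38 TPM over the 8 times. Replicate 2 measured 0.09, 0.62, 1.36, 3.06, 6.03, 4.69, 3.51 and 0.75 TPM. Each of the 14 later libraries was above both 0 h libraries, a pattern not counted over all genes. At single times 5.66% to 15.3% of all genes had both libraries above both 0 h libraries. The peak came at 48 h in replicate 1 and at 36 h in replicate 2, and both series were lower again at 96 h. The level was 0.1 ± 0.0141 TPM (SD, n = 2) at 0 h, 4.52 ± 0.240 TPM at 48 h and 1.06 ± 0.445 TPM at 96 h. The log2 fold change was 1.70 (SE 0.31, adjusted p = 0.0207) at 24 h, 2.29 (adjusted p = 0.00322) at 36 h, 2.33 (adjusted p = 0.00270) at 48 h and 2.03 (adjusted p = 0.00517) at 72 h. At 96 h it was 0.89 (SE 0.31, adjusted p = 0.198), which did not pass. The difference of 72 and 96 h from 24 and 36 h, -0.53 on the log2 scale, did not pass either (limma adjusted p = 0.655). The block added a call at 12 h (1.38 on the log2 scale, SE 0.31, limma adjusted p = 0.0331 against 0.0873) and one for 24 and 36 h against 6 and 12 h (1.05, adjusted p = 0.0371 against 0.0911). Without 0 h replicate 2 the calls at all 4 times were lost, with adjusted p = 0.296, 0.0586, 0.0567 and 0.0979. The 24 h call was also lost without 0 h replicate 1 or either 24 h library, the 36 h call without 36 h replicate 2, and the 72 h call without 72 h replicate 1; leaving out both libraries with the most zeros ended the 36 h call too (adjusted p = 0.0805).

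Because MMP10 rose and MMP24 (below) fell, the letters upstream of their starts are shown, from RefSeq on GRCh38.p14, written 5′ to 3′ on the strand of the gene and ending at the base before the GENCODE 29 start. The MMP10 window is chr11:102780629-102780878 on the minus strand, 250 bases, and the MMP24 window is chr20:35226440-35226653 on the plus strand, 214 bases. Capitals mark a match to the AP-1 motif TGANTCA, the palindromic element bound by FOS and JUN family dimers.
MMP10: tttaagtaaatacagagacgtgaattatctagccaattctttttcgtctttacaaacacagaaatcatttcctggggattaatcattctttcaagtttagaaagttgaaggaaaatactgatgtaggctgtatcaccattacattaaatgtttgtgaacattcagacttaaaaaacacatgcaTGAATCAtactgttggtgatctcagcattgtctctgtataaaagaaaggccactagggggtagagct
MMP24: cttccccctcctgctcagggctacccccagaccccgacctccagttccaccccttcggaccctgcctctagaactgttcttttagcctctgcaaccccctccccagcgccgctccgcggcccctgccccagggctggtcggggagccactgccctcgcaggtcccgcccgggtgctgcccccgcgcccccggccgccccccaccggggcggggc
The MMP10 match lies 67 to 61 bases before the start, which is the same in RefSeq and GENCODE 29. Windows of 6 members had an entry (MMP10, MMP14, MMP15, MMP24, TIMP1 and TIMP3), and the 250 bases before each RefSeq start were searched on both strands for TGANTCA and for the PEA3 motif AGGAAG, an ETS family element; no match to one overlapped a match to the other. For MMP24 the RefSeq start lies downstream of the GENCODE 29 start, so the searched window ends further on than the letters shown. MMP10 held the one AP-1 match and TIMP1 the one PEA3 match, 87 to 82 bases before its RefSeq start and downstream of its GENCODE 29 start. Among 35114 RefSeq promoter entries 6.57% held TGANTCA and 28.7% held AGGAAG in the same length. The MMP10 window was rich in A and T (34.4% G or C), whereas that of MMP24 had 77.6% G or C over 250 bases. A match describes letters and was not tested as a binding site here.

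MMP1, interstitial collagenase, which cuts fibrillar collagens, rose later than MMP10. Replicate 1 measured 0, 0.08, 0.57, 0.61, 1.11, 3.02, 3.82 and 3.71 TPM over the 8 times. Replicate 2 measured 0.03, 0.05, 0.10, 0.89, 5.74, 7.98, 7.84 and 3.55 TPM. All 14 later libraries were above both 0 h libraries, a pattern not counted over all genes (5.66% to 15.3% of them at single times). MMP1 was nevertheless below 1 TPM in every library up to 24 h, and 1 of the 0 h libraries listed it at 0. The level reached 5.5 ± 3.51 TPM (SD, n = 2) at 48 h and 5.83 ± 2.84 TPM at 72 h. The log2 fold change was 2.57 (SE 0.50, adjusted p = 0.0149) at 48 h, 2.69 (adjusted p = 0.0138) at 72 h and 2.19 (adjusted p = 0.0479) at 96 h. At 36 h, with 1.11 and 5.74 TPM in the pair of libraries, it was 1.89 (adjusted p = 0.0739), and the block called it (adjusted p = 0.0230). The 48 h call was lost without either 0 h library or 48 h replicate 2, and the 72 h call without either library of 0 or 72 h, with adjusted p up to 0.151 and 0.159. The 96 h call was kept in 6 of 16 such fits and was lost without either library of 0, 6, 24, 72 or 96 h, with adjusted p up to 0.359.

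MMP1 and MMP10 are neighbours on chromosome 11 (MMP10 at 102770503-102780628 and MMP1 at 102789920-102798160, both on the minus strand, GENCODE 29 on GRCh38). The ratio of MMP1 to MMP10, a quantity chosen after the values were seen, was 0.285 in replicate 1 and 0.291 in replicate 2 at 24 h, 0.694 and 1.70 at 48 h, 1.10 and 2.23 at 72 h and 2.69 and 4.73 at 96 h. In both series it was higher at each of these times than at the one before. At 0, 6 and 12 h replicate 1 stood at 0, 0.154 and 0.231. Replicate 2 stood at 0.333, 0.0806 and 0.0735, so its 0 h ratio was above that at 24 h. The ratio carries no test. Across the 16 libraries, which share the time course and the scale of each library, log2(TPM + 1) of the pair had Pearson r = 0.714. WTAPP1, a pseudogene on the opposite strand that overlaps both, measured 0.08 to 1.16 TPM, with r = 0.086 to MMP1 and 0.148 to MMP10. The labels do not state that strand was used in counting, so reads of overlapping genes cannot be told apart.

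**Figure D2:**
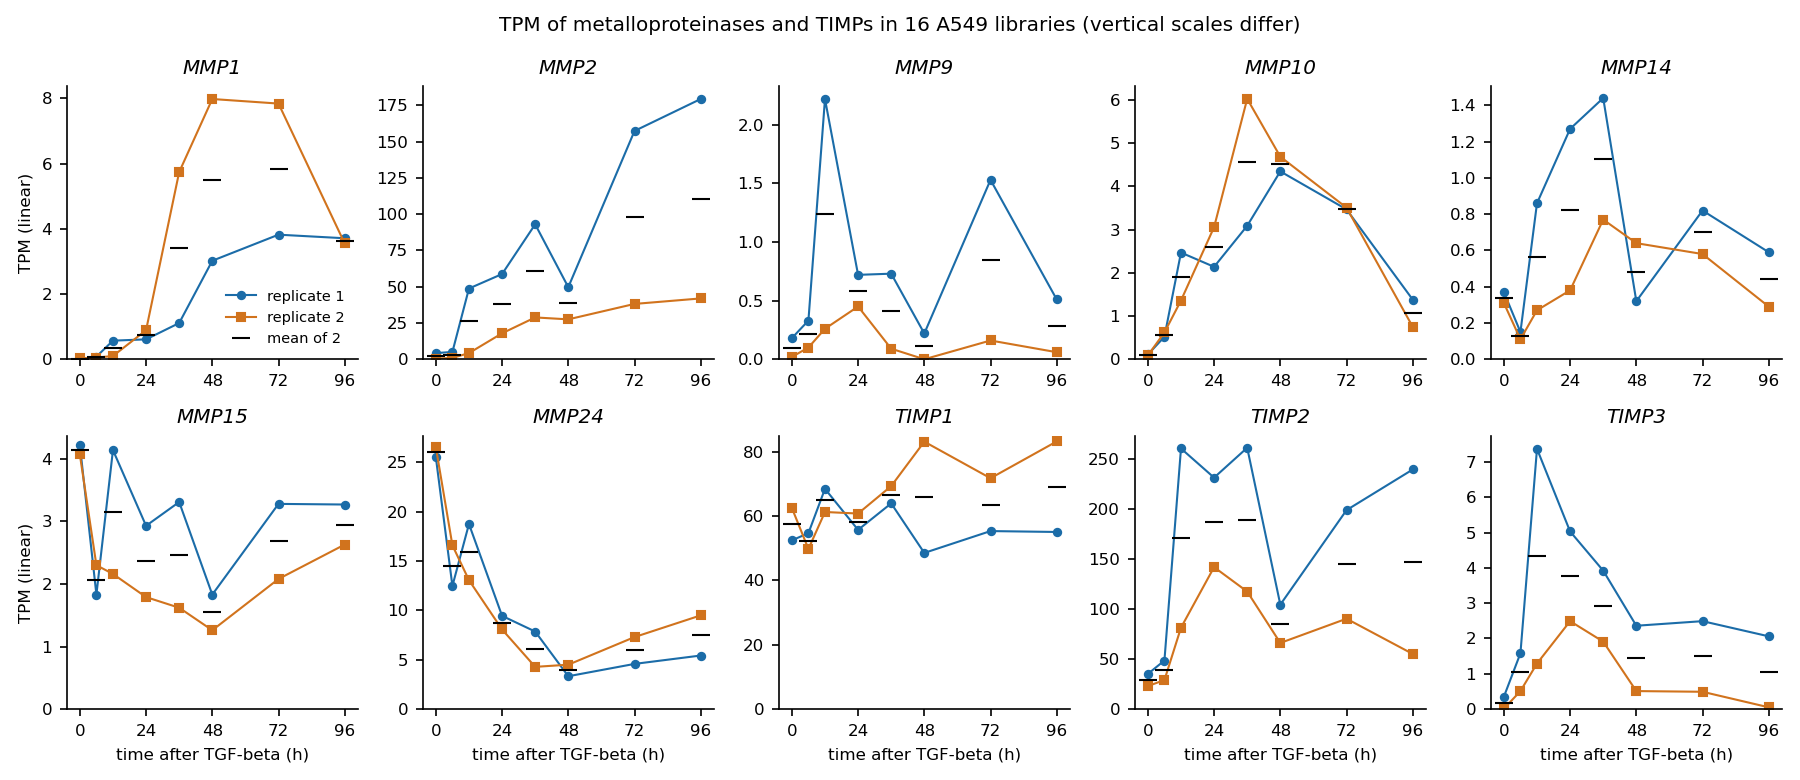
Each panel plots TPM (linear, vertical scales differ) of 1 gene against time after TGF-beta in h, with replicate 1 as blue circles, replicate 2 as orange squares and the mean of the pair as a black bar. MMP2 reaches 179.32 TPM in replicate 1 and 41.91 TPM in replicate 2 at 96 h, MMP10 peaks at 36 to 48 h, MMP24 falls from 25.52 and 26.54 TPM, and TIMP1 stays between 48.54 and 83.20 TPM.

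Among the membrane-anchored members, MMP24 (MT5-MMP), a transmembrane protease known from the nervous system, fell. Replicate 1 measured 25.52, 12.48, 18.76, 9.45, 7.86, 3.33, 4.58 and 5.43 TPM over the 8 times. Replicate 2 measured 26.54, 16.60, 13.07, 8.07, 4.28, 4.50, 7.30 and 9.50 TPM. Each of the 14 later libraries was below both 0 h libraries, a pattern not counted over all genes. At single times 16.1% to 62.3% of all genes had both libraries below both 0 h libraries. The lowest values came at 48 h in replicate 1 and at 36 h in replicate 2. The level was 26.0 ± 0.721 TPM (SD, n = 2) at 0 h and 3.92 ± 0.827 TPM at 48 h. The log2 fold change was -1.98 (SE 0.34, adjusted p = 0.0107) at 36 h, -2.47 (adjusted p = 0.00298) at 48 h, -1.99 (adjusted p = 0.00852) at 72 h and -1.72 (adjusted p = 0.0222) at 96 h. The block added 24 h (-1.47, SE 0.33, adjusted p = 0.0268 against 0.0590). Without both libraries with the most zeros the 36 h call ended (adjusted p = 0.174). TMM scaling kept the direction at every time but ended the 96 h call (-1.44, adjusted p = 0.0514). Without 0 h replicate 2 each of these 4 calls was lost, with adjusted p = 0.161, 0.0591, 0.134 and 0.269; without 0 h replicate 1 those at 36, 72 and 96 h were lost, and 36 h replicate 2, 72 h replicate 1 and 96 h replicate 1 each decided the call at its own time. MMP24OS, a gene on the strand opposite to MMP24 (MMP24 lies on chromosome 20 at 35226654-35277000, plus strand) that overlaps it, measured 3.44 to 13.31 TPM, with r = 0.751 to MMP24 over the 16 libraries.

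MMP15 (MT2-MMP), a transmembrane collagenase, was lower than at 0 h in 13 of 14 later libraries but was not called without the block. Replicate 1 measured 4.22, 1.83, 4.14, 2.93, 3.31, 1.83, 3.28 and 3.27 TPM, and replicate 2 4.07, 2.30, 2.16, 1.79, 1.62, 1.26, 2.08 and 2.63 TPM. The log2 fold change was -1.02 at 48 h (SE 0.33, adjusted p = 0.0744), and the block called it (SE 0.28, adjusted p = 0.0272). At that time the median of all genes was -0.46, and 62.3% of all genes had both libraries below both 0 h libraries.

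MMP14 (MT1-MMP), the membrane protease that activates the MMP2 precursor, was among the scarcest members. It measured 0.37, 0.15, 0.86, 1.27, 1.44, 0.32, 0.82 and 0.59 TPM in replicate 1 and 0.31, 0.11, 0.27, 0.38, 0.77, 0.64, 0.58 and 0.29 TPM in replicate 2. Only 2 libraries, replicate 1 at 24 and 36 h, reached 1 TPM. Both series were highest at 36 h, where the log2 fold change was 0.63 (95% interval -0.02 to 1.29, adjusted p = 0.364). No comparison with 0 h called it.

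TIMP2, which inhibits MMP2 and most other members and also serves as its docking partner on MMP14, had the highest mean of the 10 over all libraries (124 TPM), although TIMP1 was above it in all 0 h and 6 h libraries and in replicate 2 at 48 and 96 h. Replicate 1 measured 35.20, 48.59, 260.82, 231.64, 261.56, 104.53, 199.12 and 239.81 TPM over the 8 times. Replicate 2 measured 23.06, 28.99, 81.46, 142.06, 117.61, 66.19, 90.45 and 55.17 TPM. Both libraries of each time from 12 h on were above both 0 h libraries, as were 6.61% to 15.3% of all genes at single times. Replicate 1 was the higher at 8 of 8 times. Relative to its own 0 h library, replicate 1 stood at 7.41-fold and replicate 2 at 3.53-fold at 12 h, and at 6.81-fold and 2.39-fold at 96 h. The mean of 24 to 96 h was higher than 0 h by 2.18 on the log2 scale (SE 0.54, adjusted p = 0.0308). As deposited and without the block no single time passed: the difference was 2.63 (SE 0.70, limma adjusted p = 0.101) at 24 h and 1.98 (SE 0.70, limma adjusted p = 0.207) at 96 h. The block called TIMP2 at each time from 12 h (2.32, SE 0.32, adjusted p = 0.00381) to 96 h (adjusted p = 0.00307), and TMM scaling called it at 24, 36 and 72 h. The call for 24 to 96 h was lost without either 0 h library, 24 h replicate 1 or 48 h replicate 1, with adjusted p up to 0.473. CEP295NL, which overlaps TIMP2 on the same strand (TIMP2 lies on chromosome 17 at 78852977-78925387, minus strand), measured 0.25 to 12.92 TPM, with r = 0.692 to TIMP2.

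TIMP3, an inhibitor that binds to the extracellular matrix, had its highest values at 12 and 24 h. Replicate 1 measured 0.35, 1.58, 7.37, 5.03, 3.92, 2.36, 2.49 and 2.06 TPM over the 8 times. Replicate 2 measured 0.01, 0.51, 1.29, 2.49, 1.91, 0.51, 0.49 and 0.05 TPM. The highest value came at 12 h in replicate 1 and at 24 h in replicate 2, and by 96 h replicate 2 was below the 0 h library of replicate 1. Without the block no comparison called TIMP3; the log2 fold change was 1.91 (SE 0.68, adjusted p = 0.366) at 12 h and 1.97 (adjusted p = 0.242) at 24 h. With the block it was called at 12, 24 and 36 h (adjusted p = 0.00944, 0.00504 and 0.00851) and not at 48, 72 or 96 h (adjusted p = 0.0632, 0.107 and 0.376). The difference between 72 and 96 h and 24 and 36 h was -1.04 (adjusted p = 0.0724 with the block), and it was called with TMM scaling and the block together (adjusted p = 0.023).

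TIMP1, a secreted inhibitor of most soluble MMPs, was not called in any comparison. Replicate 1 measured 52.44, 54.69, 68.46, 55.71, 63.94, 48.54, 55.33 and 55.05 TPM over the 8 times. Replicate 2 measured 62.53, 49.77, 61.26, 60.78, 69.31, 83.12, 71.76 and 83.20 TPM. The 48 h and 96 h pairs spanned the widest gaps, with replicate 2 the higher in each. The mean of 24 to 96 h differed from 0 h by 0.15 on the log2 scale (95% interval -0.31 to 0.61, adjusted p = 0.710), and TMM scaling gave 0.42 (adjusted p = 0.473). At 6 h the direction depended on the scale, -0.13 as deposited and 0.39 with TMM; neither passed.

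The makeup of the 10 members shifted with time. MMP24 gave 73.7% of the summed TPM of the 7 MMP genes in replicate 1 and 84.3% in replicate 2 at 0 h, and MMP2 gave 92.3% and 71.4% at 96 h. Among these 7, MMP2 was the highest from 12 h on in replicate 1 and from 24 h on in replicate 2; with MMP7 counted, MMP2 led in replicate 2 from 48 h on. The summed level of these 7 MMP genes was 34.65 TPM at 0 h but 194.21 TPM at 96 h in replicate 1, and 31.48 and 58.69 TPM in replicate 2. It was lower at 6 h, at 20.42 and 20.69 TPM. These sums depend on the genes chosen. With MMP7, MMP17 and MMP28, the other MMP genes that passed the filter, the sum was 62.17 TPM at 0 h and 202.5 TPM at 96 h in replicate 1, whereas in replicate 2 it was 168.93 TPM at 0 h and 69.77 TPM at 96 h, the opposite direction. MMP7, matrilysin, made up 78.8% of that sum in replicate 2 at 0 h and 8.84% at 96 h. TIMP2 gave 40.0% of the summed TPM of the 3 TIMP genes in replicate 1 and 26.9% in replicate 2 at 0 h, 79.2% and 69.2% at 24 h, and 80.8% and 39.9% at 96 h. In replicate 2, TIMP1 was therefore again the larger share (60.1%) at 96 h, whereas in replicate 1 it was 18.5%.

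**Figure D3:**
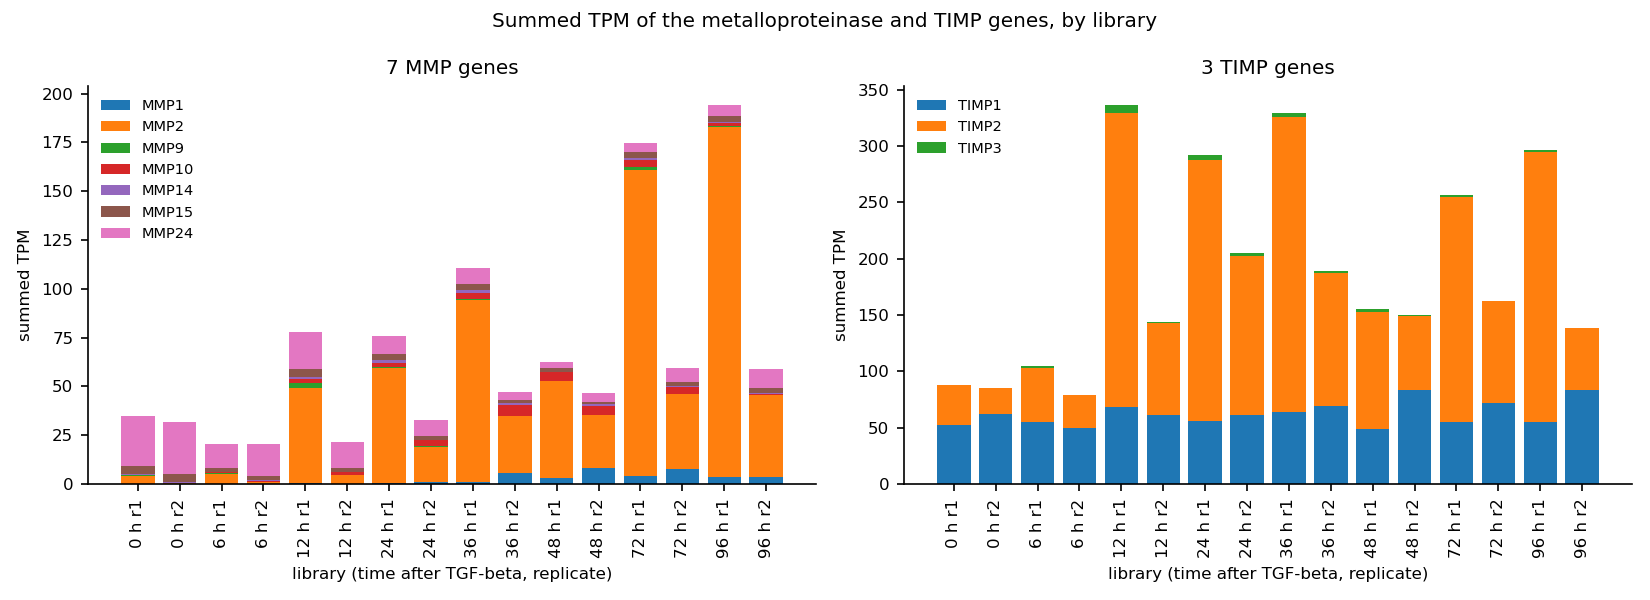
Bars stack the summed TPM (vertical, from 0) of the 7 MMP genes on the left and the 3 TIMP genes on the right in each of the 16 libraries, ordered by time and replicate (r1, r2). MMP24 fills most of the 0 h MMP bars (73.7% and 84.3%), MMP2 most of the 96 h bars (92.3% and 71.4%), and TIMP2 makes the 12 to 36 h TIMP bars tall.

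Ratios within a library do not depend on its overall scale. The ratio of MMP2 to TIMP2 TPM was 0.121 in replicate 1 and 0.0182 in replicate 2 at 0 h, 0.253 and 0.126 at 24 h, 0.475 and 0.415 at 48 h, 0.790 and 0.421 at 72 h and 0.748 and 0.760 at 96 h. Both libraries at each time from 24 h on were above both 0 h libraries. At 96 h the ratios of the replicates lay close together although MMP2 itself measured 179.32 and 41.91 TPM. The ratio of MMP14 to TIMP2 was 0.0105 and 0.0134 at 0 h and did not exceed 0.00967 in any later library. The summed MMP to summed TIMP ratio of the 10 members was 0.394 and 0.368 at 0 h, 0.231 and 0.149 at 12 h, 0.404 and 0.311 at 48 h and 0.654 and 0.424 at 96 h. It was below both 0 h values in both libraries at 6, 12, 24 and 36 h and above both at 96 h. With MMP7, MMP17, MMP28 and TIMP4 added, a choice made after the values were seen, it was 0.673 in replicate 1 and 1.87 in replicate 2 at 0 h and 0.665 and 0.474 at 96 h, so both 96 h libraries were then below both 0 h libraries. MMP10 to TIMP1 peaked at 0.0896 (48 h) in replicate 1 and 0.0870 (36 h) in replicate 2 and was 0.0251 and 0.00901 at 96 h. These ratios are descriptions of 2 libraries a time; an exact permutation test of 2 against 2 cannot give a p below 0.333.

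**Figure D4:**
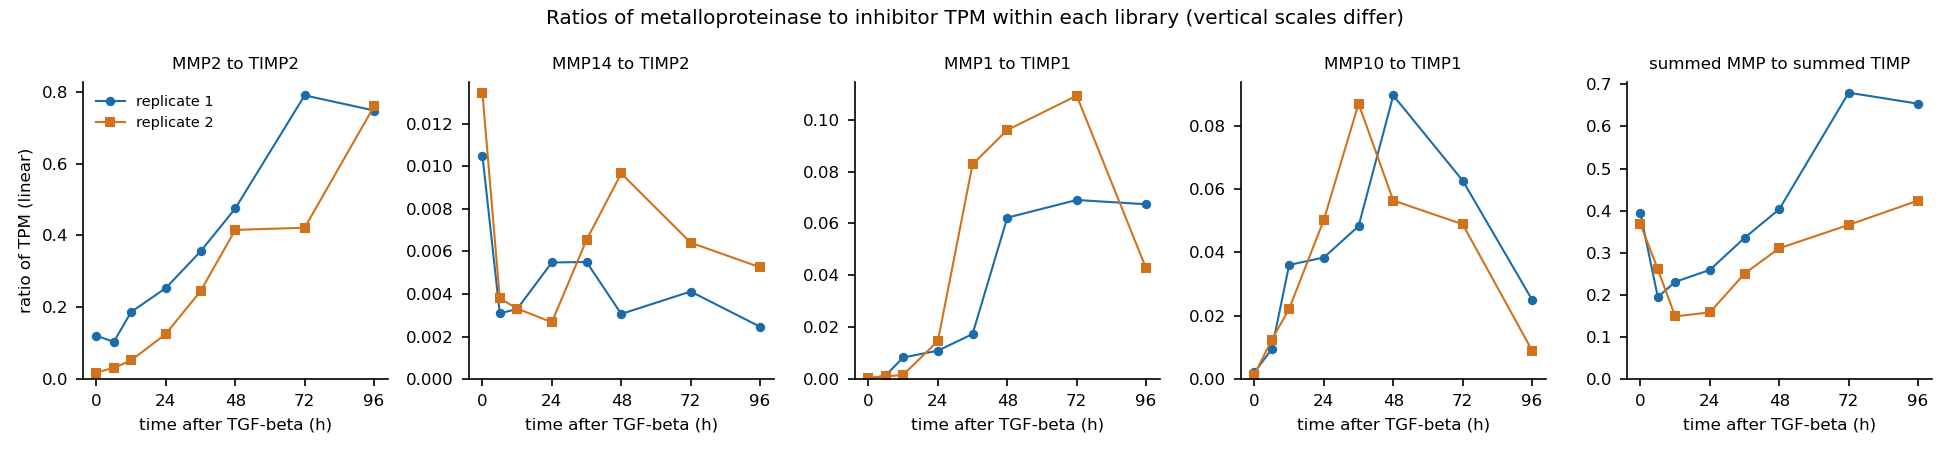
Each panel plots a ratio of TPM within a library (linear, vertical scales differ) against time after TGF-beta in h, replicate 1 as blue circles and replicate 2 as orange squares. MMP2 to TIMP2 climbs to 0.748 and 0.760 at 96 h, and the summed ratio of the 10 members dips to 0.231 and 0.149 at 12 h before it exceeds its 0 h values of 0.394 and 0.368 at 96 h.

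Both replicate series differed in level for some members and not for others. In the blocked fit, replicate 1 exceeded replicate 2 by 1.88 on the log2 scale for MMP2 (SE 0.20, adjusted p = 0.000142), 1.09 for TIMP2 (adjusted p = 0.00179), 1.07 for TIMP3 (adjusted p = 0.00222) and 0.58 for MMP9 (adjusted p = 0.0326). These 4 of 10 stand beside 8.32% of all genes called higher and 2.48% called lower in replicate 1. MMP9 passed the filter only through 2 libraries, both of replicate 1, so its call here is not independent of the filter. The other 6 were not called, with MMP24 at -0.08, MMP10 at -0.04 and MMP1 at -0.42 (adjusted p = 0.790, 0.887 and 0.225). What the replicate numbers stand for is not given in the labels.

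The levels of members could also be followed by how they moved together. Over the 16 libraries, Pearson r of log2(TPM + 1) was 0.862 for MMP2 and TIMP2, 0.862 for TIMP2 and TIMP3, 0.811 for MMP9 and TIMP3, -0.823 for MMP10 and MMP24 and -0.819 for MMP1 and MMP24. TIMP1 had no r above 0.516 with any other member. Among the 9384 genes whose mean reached 5 TPM, the profiles most like that of MMP2 were SERPINE2 and STC1 (r = 0.977 each) and CORO2B (0.974). Those most like TIMP2 were COL4A2 (0.986), JARID2 (0.974) and BMP1 (0.973), and those most like TIMP3 were FAM83G (0.953), COL1A1 (0.951) and CALD1 (0.947). MMP24 was most like GAPDH (0.976), POR (0.975) and LDHB (0.957). MMP10 was most like SLN (0.919), GAL (0.912) and IGFL1 (0.905), and MMP1 most like SCG5 (0.932), IFNWP19 (0.931) and MIR31HG (0.924). For the rest the nearest gene was FBLIM1 for MMP9 (0.923), ATP8B2 for MMP14 (0.893), MAFG for MMP15 (0.951) and SPRY2 for TIMP1 (0.844). All these points share libraries, their scale and the time course, so they describe profiles only.

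Of 17 further genes of both families (other MMP genes and TIMP4), 4 passed the filter (MMP7, MMP17, MMP28 and TIMP4), and the F test called 1, TIMP4 (1.72% of all genes), or 2 with the block, TIMP4 and MMP7 (6.13%). TIMP4, another secreted inhibitor, measured 4.37 and 4.58 TPM at 0 h. The pair stood at 12.38 and 17.22 TPM by 24 h, then at 7.49 and 8.64 TPM by 96 h. At 24 and 96 h TIMP4 did not overlap 0 h, and 15.2% and 7.6% of all genes lay above 0 h in this way. Its mean over 24 to 96 h was higher than at 0 h by 1.23 (SE 0.19, adjusted p = 0.00212), and its F test gave an adjusted p of 0.0385, which was 0.110 with TMM scaling. The median log2 fold change of these 4 genes for 24 to 96 h against 0 h was 0.30, against 0.79 for the 10 members and -0.23 for all genes. Members and lists were chosen with earlier results of these data known, so these medians only describe the genes chosen.

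Of 19 activators, surface partners and regulators of MMP proteins, 17 were tested. For 24 to 96 h against 0 h, 7 were called higher and 0 lower, where 7.12% of all genes were called. Among the 7 were FURIN, a convertase that removes the propeptide of membrane-type MMPs, PLAU (urokinase), its receptor PLAUR, ITGAV, SPOCK1 and TSPAN12. The block called 8 higher and 1 lower, where it called 12.5% of all genes. In the F test 1 of 17 was called without the block (1.72% of all genes) and 8 with it (6.13%). PLAUR, the surface anchor of urokinase in the cascade that activates secreted MMPs through plasmin, rose from 15.1 and 17.12 TPM at 0 h to 65.35 and 78.13 TPM at 36 h and measured 81.01 and 42.22 TPM at 96 h. Its F test had an adjusted p of 0.0162. FURIN measured 14.05 and 10.21 TPM before TGF-beta, then 77.08 and 44.46 TPM by 12 h (2.20 on the log2 scale, SE 0.40, limma adjusted p = 0.0432). Of 18 transcription factors described at MMP and TIMP promoters, all 18 were tested. The limma F test called 0 (1.72% of all genes), with 3 at an unadjusted p below 0.05. With the block it called 2, ETS2 and JUNB (6.13%), and with TMM scaling 1, ETS2 (560 of 16967 genes). At single times ETS2, an ETS family factor, was called at 12 h (2.46 on the log2 scale, SE 0.46, adjusted p = 0.0469, from 29.01 and 16.1 TPM before TGF-beta to 164.92 and 92.01) and at 24 h (2.10, adjusted p = 0.0497).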

How the data were processed

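Gene abundances of 16 A549 libraries (8 times, 2 replicates each) were used. The deposited values are TPM, which the authors made from reads with Bowtie and RSEM (no versions), per the submitters' processing notes. The build and annotation are not given in sources used here, and the depth is unknown. Trizol RNA went into TruSeq RNA libraries, per the labels' protocols. The tables of both replicate numbers were joined by Ensembl identifier, and TPM of 1000000 per library gave the common scale. Values were analysed as log2(TPM + 1) for the 16967 genes that reached 1 TPM in 2 or more libraries. The test was that of limma 3.58.1 (R 4.3.3), with 1 mean per time, 1 spread shared by all 16 libraries, empirical Bayes moderation with a trend, two-sided tests and Benjamini-Hochberg adjustment over all genes tested, at a threshold of 0.05.

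The contrasts were each later time against 0 h, 24 and 36 h against 6 and 12 h, 72 and 96 h against 24 and 36 h, the mean of 24 to 96 h against 0 h, and an F test. Whether replicates 1 and 2 were separate cultures is unstated in the labels, so each p-value reflects the spread among these libraries alone, and that spread may be technical. Deviations of same-numbered libraries from their time means correlated above 0.1 in 28 of 28 pairs of times (lowest 0.128, median 0.438), and in 27 of 28 with TMM scaling. The replicate number was therefore also fitted as a block, and blocked values are given where they change a call. The main fit and the fits without 1 library had no block, because the labels do not say what the numbers stand for. No libraries were identical. On simulated data for 24 h against 0 h, 200 of 16967 genes were changed. The procedure recovered 70% of changes of 2 and 97% of changes of 4 on the log2 scale, with 11 other genes called. The simulated libraries were drawn independently, without the shared deviations of same-numbered libraries or changes at other times. These rates therefore do not carry over to the deposited libraries.

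All 10 members are named whatever their values; further genes are named from 3 lists where the F test called them, with FURIN, ETS2 and genes called for 24 to 96 h added after their values were seen; values of some genes of these lists are not reported here. Profiles most alike were the 3 genes with the highest Pearson r of log2(TPM + 1) among the 9384 genes whose mean reached 5 TPM. The members and lists were chosen with earlier results of these data known. Positions are from GENCODE 29 on GRCh38 and promoter letters from RefSeq on GRCh38.p14; both were matched by gene, and no measured value depends on them. Alternatives were TMM scaling, TPM without 6 small RNAs, a pseudocount of 0.1, no filter, a minimum of 5 TPM, the replicate block, TMM with the block, each library left out, and both libraries with the most zeros left out; this last, and sums with 4 further family genes, were chosen after seeing the data.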

Additional observations from a re-analysis of the deposited data

How the results depend on the processing

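Each comparison was refitted under 8 alternatives and without each library. With the replicate block the members called were 4, 5, 6 and 6 at 12, 24, 36 and 48 h, 3 for 24 and 36 h against 6 and 12 h and 6 in the F test; it changed no other count by over 1.5 times. TMM scaling gave 2 at 24 h, 4 at 36 h and 1 for 24 and 36 h against 6 and 12 h. TMM with the block gave 1, 4, 5, 6 and 6 at 6, 12, 24, 36 and 48 h, 4 for 24 and 36 h against 6 and 12 h, 2 for 72 and 96 h against 24 and 36 h and 6 in the F test. Without the 6 small RNAs the counts were 1 at 12 h, 2 at 24 h, 5 at 36 h and 1 for 24 and 36 h against 6 and 12 h. A pseudocount of 0.1 gave 1 at 12 h. No filter gave 0 at 96 h and 1 in the F test. A minimum of 5 TPM, which left 6 members and dropped MMP10, gave 0 at 24 h, 1 at 36 h and 1 in the F test. Leaving out both libraries with the most zeros gave 0 at 36 h. Without each library in turn the counts ran from 0 to 0 at 6 h, 0 to 1 at 12 h, 0 to 3 at 24, 36 and 96 h and in the F test, 0 to 4 at 48 and 72 h, 0 to 5 for 24 to 96 h, and 0 to 0 for both contrasts of later times. A time left with 1 library was assumed to vary like the others.

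Of the refitted log2 fold changes of single members other than those without 1 library, 675 kept direction and call, 64 gained a call, 11 lost it and 10 changed sign, none of them called. MMP9 gave -0.0352 at 48 h with a pseudocount of 0.1, and 0.0062 for 72 and 96 h against 24 and 36 h with TMM, with and without the block. TIMP1 at 6 h gave 0.39 with TMM, with and without the block, and 0.0801 without the small RNAs. Leaving out both libraries with the most zeros gave 0.0826 for MMP9 and 0.11 for MMP15 (24 and 36 h against 6 and 12 h), -0.0213 for MMP14 and -0.23 for TIMP1 (48 h). Sign changes without 1 library, as the range over all such fits, were -0.63 to 1.26 for MMP2 at 6 h; -0.0093 to 0.66, -0.13 to 0.15 and -0.0496 to 0.46 for MMP9 at 36, 48 and 96 h, -0.42 to 0.0826 for 24 and 36 h against 6 and 12 h and -0.17 to 0.28 for 72 and 96 h against 24 and 36 h; -0.077 to 0.47, -0.0213 to 0.29 and -0.0545 to 0.25 for MMP14 at 12, 48 and 96 h; -0.25 to 0.11 for MMP15 (24 and 36 h against 6 and 12 h); -0.31 to 0.0607 for MMP24, -0.0783 to 0.22 for TIMP1 and -1.04 to 0.0085 for TIMP2 (72 and 96 h against 24 and 36 h); -0.10 to 0.15, -0.23 to 0.53, -0.0488 to 0.32 and -0.056 to 0.53 for TIMP1 at 24, 48, 72 and 96 h; and -0.15 to 1.39 for TIMP3 at 96 h. MMP9 and MMP14 were tested in 14 of 16 such fits, since each passed the filter through 2 libraries. A pseudocount of 1 moved 20 of 40 mean ratios beyond the spread of the replicates, and adding 4 further family genes moved 6 of 8 mean summed ratios (1.27 at 0 h and 0.570 at 96 h). The cause of these changes was not tested. Low TPM limit MMP9, MMP14 and MMP1 before 36 h, since the reads behind these values are unknown. The same holds for MMP10 at 0 and 6 h (at most 0.62 TPM) and for TIMP3 at 0 h and in replicate 2. Each comparison of MMP10 with 0 h rests on 0.11 and 0.09 TPM.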

Other observations

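MMP7 (matrilysin), a secreted protease of epithelia whose gene lies in the same cluster on chromosome 11 as MMP10 and MMP1 (102520508-102530753, minus strand, GENCODE 29 on GRCh38), had the highest level of any gene of the cluster at 0 h. Replicate 1 measured 22.72, 55.51, 16.33, 6.58, 2.06, 1.96, 0.36 and 0.81 TPM over the 8 times. Replicate 2 measured 133.1, 133.52, 130.42, 81.17, 32.29, 21.58, 10.17 and 6.17 TPM. From 48 h on both libraries of each time were below both 0 h libraries, as were 62.3%, 41.5% and 31% of all genes at 48, 72 and 96 h. At 48 h this rested on 21.58 TPM in replicate 2 against 22.72 TPM in replicate 1 at 0 h. At 36 h replicate 2 (32.29 TPM) was above that 0 h library. Replicate 2 was the higher of the pair at each of the 8 times, whereas for MMP2 replicate 1 was. The log2 fold change at 96 h was -3.97 (limma adjusted p = 0.276; with the replicate block adjusted p = 0.000233). Of the other genes of the cluster, MMP3 did not exceed 0.77 TPM, and MMP8, MMP13, MMP20 and MMP27 did not exceed 0.06 TPM in any library. So within this cluster MMP1 and MMP10 were called higher, MMP7 was lower at 96 h than at 0 h in both series and called with the block only, and the rest were near 0.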
